A study of Mus musculus with 32 samples.

Results

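The Dusp genes described here are Dusp1, Dusp2, Dusp4, Dusp5, Dusp6, Dusp7, Dusp8, Dusp10, Dusp14 and Dusp16, 10 of the 55573 genes in the count table, taken by their gene symbol. They encode dual-specificity phosphatases, enzymes that remove phosphate from both the tyrosine and the threonine of a protein. Most of them act on MAP kinases, the last kinases of the Ras-Raf-MEK-ERK, JNK and p38 cascades, and switch these off by dephosphorylating the activation loop. In neurons, calcium entry during depolarization activates MAP kinases and CREB, and transcription of several of these phosphatases follows within minutes to hours, which gives the cascade a negative feedback. Dusp1, Dusp2, Dusp4 and Dusp5 encode the nuclear, inducible phosphatases, Dusp6 and Dusp7 the cytoplasmic phosphatases of ERK, Dusp8, Dusp10 and Dusp16 phosphatases with a preference for JNK and p38, and Dusp14 a small phosphatase outside the classical family.

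Primary hippocampal neurons of newborn mice, from litters pooled over both sexes, were grown for 15 days on microporous membranes, so that the soma could be scraped from the top and the neurites (axons and dendrites) from the bottom. WT (C57BL/6) and Mettl3Flox/Flox cultures both received an AAV that expressed Cre and dTomato from the neuronal hSyn promoter on day 7, which deletes Mettl3, the catalytic subunit of the m6A methyltransferase, in Mettl3Flox/Flox neurons only (Mettl3 KO), and leaves it in glia. Both were silenced on day 14, for 16 h, with the sodium channel blocker tetrodotoxin (1 µM) and the NMDA receptor antagonist D-AP5 (50 µM). Ctrl cultures had no further treatment, and KCl cultures were depolarized with 55 mM KCl for 2 h before RNA extraction. The 16 RNA-seq libraries, made from 50 ng of RNA, formed 8 groups (soma or neurites, WT or Mettl3 KO, Ctrl or KCl) of 2 replicates from distinct litters. According to the paper, Ctrl and KCl neurons shared a litter, a pairing that the main tests did not use. The soma fraction can also hold neurites. DART-seq, in which an APOBEC1-YTH fusion deaminates cytidines next to m6A in extracted RNA, was available as the authors' values pooled over libraries.

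All 10 genes were counted in every library, with totals of 33789183 to 71394235 counts per library. Counts of a single gene ran from 16 to 222 for Dusp2, the lowest, and from 317 to 53693 for Dusp1, the widest range. Levels are given as FPKM, which are counts per kilobase of exon, scaled to the size of the library by TMM. Mettl3 itself stood at 13.2 to 17.3 CPM (the same scaling without exon length) in WT soma and 6.11 to 11.6 CPM in Mettl3 KO soma. In neurites it stood at 8.90 to 12.5 CPM in WT and 3.88 to 7.90 CPM in Mettl3 KO, so the ranges overlapped in neither compartment. The counts cover all exons, while the paper reports loss of the floxed exon, so they do not measure how complete the deletion was. Fos stood at 12.8 to 61.7 CPM in the 8 Ctrl libraries and 644 to 4230 CPM in the 8 KCl libraries. Summed over their lists, 10 neuron markers were detected in all libraries, at 1970 to 12981 CPM, and 9 astrocyte markers at 1195 to 18544 CPM, so the cultures held glia. KCl-treated Mettl3 KO replicate 1 stood apart in both compartments, with 7 markers of the oligodendrocyte lineage summing to 3511 CPM in soma and 6963 CPM in neurites, against 57.8 to 203 CPM in the other 14 libraries. The 9 astrocyte markers summed to 9571 and 18544 CPM in these libraries and to at most 7130 CPM elsewhere, and none of the markers of either list was at 0 in any library. The neuron markers were lowest in these libraries, at 2074 and 1970 CPM against at least 4295 CPM elsewhere. Microglia markers summed to 228 and 166 CPM there (at most 33.7 CPM elsewhere), and fibroblast and vessel markers to 135 and 718 CPM, more than in any other library. Replicates differed more in Mettl3 KO than in WT: the SD over genes of the log2 ratio between replicates was 0.154 to 0.309 in the 4 WT groups and 0.436 to 1.08 in the 4 Mettl3 KO groups.

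The promoter windows of the members that hold a binding motif of an activity-regulated factor are shown first, because the KCl response is the main contrast. RefSeq promoters (GRCm38.p6, 250 bases before and 50 bases from the start) were found for 9 of the 10 genes, all but Dusp4. The CREB site TGACGTCA, which reads the same on both strands, occurred in Dusp1, 143 bases before the start, and in Dusp8, 107 and 63 bases before the start. In the 30-base windows below, from chr17:26508597-26508626 (minus strand), chr7:142095373-142095402 (minus) and chr7:142095329-142095358 (minus), the capitals mark TGACGTCA.
Dusp1 promoter: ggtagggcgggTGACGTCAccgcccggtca
Dusp8 promoter, farther site: gcccgctccgcTGACGTCAcctgcccccga
Dusp8 promoter, nearer site: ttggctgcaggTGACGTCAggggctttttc

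The CArG box, the site of serum response factor, was found only in Dusp5 among the 9 promoters, in 2 adjacent copies that start 82 and 72 bases before the start, at chr19:53529053-53529082 and chr19:53529063-53529092 (plus strand). The capitals mark the box.
Dusp5 promoter, farther box: ggggaaatacCCATATTTGGccttatatgg
Dusp5 promoter, nearer box: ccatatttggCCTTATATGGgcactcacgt

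Of the 32851 promoters in the table, 1.79% held TGACGTCA and 1.63% a CArG box. The shorter CREB core TGACG, searched on both strands and counted also inside TGACGTCA, occurred in 5 of the 9 promoters (Dusp1, Dusp2, Dusp5, Dusp8 and Dusp16) and in 20.8% of all promoters. No match means only that these letters are absent from these 300 bases.

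DART-seq sites of the member mRNAs are shown next, at the C-to-U position with the highest editing in each mRNA. The window holds 12 bases on either side (GRCm38, strand of the gene), and the capitals mark the core of the m6A motif, A or G followed by A and by the edited C. The windows lie at chr17:26507610-26507634 (minus) for Dusp1, chr8:34818950-34818974 (plus) for Dusp4, chr10:99263520-99263544 (plus) for Dusp6 and chr7:142080710-142080734 (minus) for Dusp8.
Dusp1 site: tagtgtgcctGACagtgcagaatcc
Dusp4 site: acacattaaaAACaaacacaactaa
Dusp6 site: ccaccgacttGACttctgtgtcgct
Dusp8 site: actataggagAACtgtctccaagca

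In silenced WT soma, Dusp14 was the most abundant of the 10 mRNAs at 34.4 and 36.3 FPKM (replicates 1 and 2, in this order throughout), followed by Dusp8 at 26.7 and 24.2 FPKM. Dusp4 at 5.33 and 5.96 FPKM came next, above Dusp7 at 3.51 and 3.45 FPKM. Dusp6, at 3.07 FPKM in both, and Dusp1, at 2.90 and 3.06 FPKM, lay close together. Dusp5 at 1.18 and 1.28 FPKM and Dusp2 at 0.914 and 1.36 FPKM overlapped, as did Dusp10 at 0.682 and 0.736 FPKM and Dusp16 at 0.617 and 0.691 FPKM, the lowest. After KCl, Dusp1 was the highest of the 10 in WT soma. The plot of levels by library shows all 16 values of each gene.

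**Figure D1:**
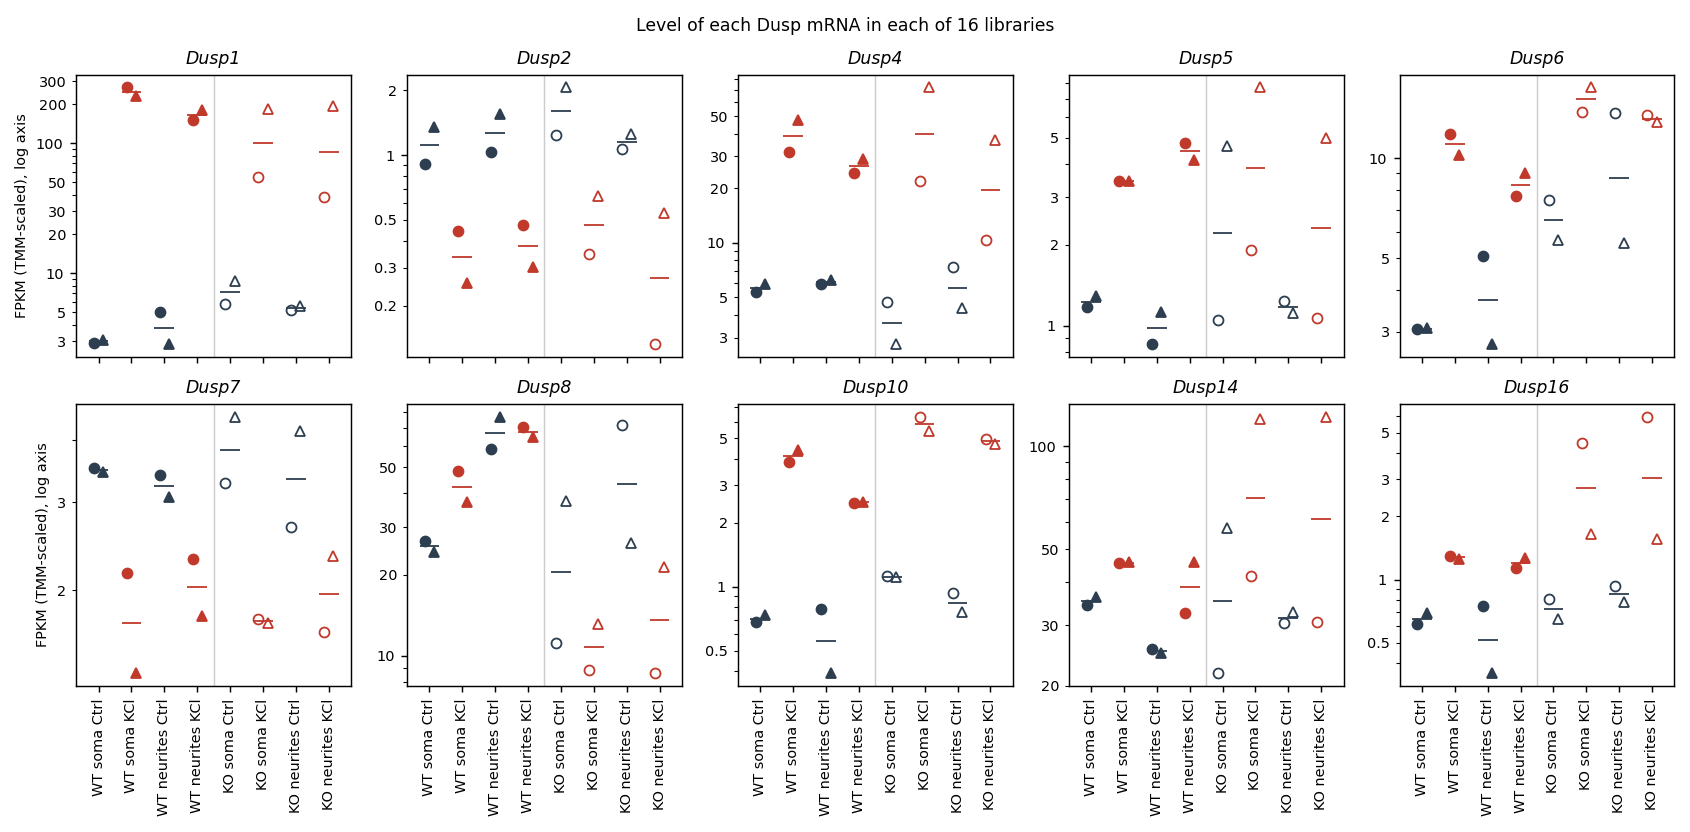
Level of each of the 10 Dusp mRNAs in the 16 libraries, as FPKM on a log axis with its own range per gene; circles are replicate 1 and triangles replicate 2, filled symbols WT and open symbols Mettl3 KO, dark Ctrl and red KCl, and each line is the geometric mean of the 2 replicates. In WT, the KCl libraries of Dusp1 lie at 151 to 269 FPKM and the Ctrl libraries at 2.85 to 5.02 FPKM, while Dusp2 and Dusp7 lie lower after KCl.

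Which phosphatases responded to depolarization was asked in each compartment and genotype. In WT soma, 5 of the 10 genes rose at least 2-fold at an adjusted p of at most 0.05 (edgeR quasi-likelihood test, Benjamini-Hochberg adjustment over all genes tested), against a background of 3.74% of 24060 genes called higher, and 1 fell, against 2.96% called lower. In WT neurites 6 rose, against 3.33% of 22059 genes, and 1 fell, against 1.7%. The median log2 change of the 10 genes was 1.23 in soma and 1.18 in neurites, against 0.01 over all genes tested in either compartment. When the Mettl3 KO libraries shared the fit (16 libraries), Dusp1, Dusp4, Dusp6 and Dusp10 kept their call in soma, Dusp2 and Dusp5 lost it (adjusted p = 0.352 and 0.632), and in neurites only Dusp1 and Dusp10 kept it. These bulk values do not tell apart fewer cells of a type from less RNA per cell.

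Of the nuclear phosphatases, Dusp1, which inactivates p38, JNK and ERK, responded most. Its level in WT soma was 2.90 and 3.06 FPKM in Ctrl and 269 and 231 FPKM in KCl, an 83.8-fold rise (log2 change 6.39, SE 0.24, adjusted p = 7.9e-08), the 15th largest log2 change of 24060 genes. In the neurites of WT, Dusp1 was 5.02 and 2.85 FPKM in Ctrl and 151 and 179 FPKM in KCl, a 44.4-fold rise (log2 change 5.47, SE 0.23, adjusted p = 5.5e-07). Both KCl libraries lay far above both Ctrl libraries in each compartment, with no overlap. Exons of Dusp1 share bases with Ergic1 on the opposite strand, and the counting did not use strand.

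Dusp4, whose product acts on ERK and JNK in the nucleus, stood at 5.33 and 5.96 FPKM in Ctrl and 31.7 and 47.8 FPKM in KCl in WT soma, a 7.06-fold rise (log2 change 2.82, SE 0.19, adjusted p = 6.2e-06). In neurites Dusp4 went from 5.94 and 6.26 FPKM to 24.4 and 29.2 FPKM, a 4.66-fold rise (log2 change 2.22, SE 0.20, adjusted p = 7.3e-05). The Ctrl and KCl libraries of Dusp4 did not overlap in either compartment. Dusp5, whose product is specific for ERK, stood at 1.18 and 1.28 FPKM in Ctrl and 3.45 and 3.47 FPKM in KCl in WT soma, a 2.81-fold rise (log2 change 1.49, SE 0.20, adjusted p = 0.00069). In WT neurites Dusp5 was at 0.854 and 1.12 FPKM in Ctrl and 4.79 and 4.14 FPKM in KCl, a 4.83-fold rise (log2 change 2.27, SE 0.21, adjusted p = 8.9e-05). Again no Ctrl library reached a KCl library. Its exons share bases with an antisense transcript, AC137853.2.

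Dusp2 was the only called member that went down, at 0.914 and 1.36 FPKM in Ctrl and 0.446 and 0.255 FPKM in KCl in WT soma, 3.26-fold lower (log2 change -1.71, SE 0.38, adjusted p = 0.014). The neurite values of Dusp2 were 1.04 and 1.56 FPKM in Ctrl and 0.474 and 0.304 FPKM in KCl (log2 change -1.65, SE 0.39, adjusted p = 0.0273). Both KCl libraries were lower than both Ctrl libraries, at low counts. The call was lost in soma without Ctrl replicate 2 (adjusted p = 0.159) or KCl replicate 2 (0.077), and in neurites without Ctrl replicate 2 (0.128), KCl replicate 1 (0.058) or KCl replicate 2 (0.23).

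The cytoplasmic ERK phosphatases moved apart. Dusp6, itself a classical ERK target gene, stood at 3.07 FPKM in both Ctrl and 11.8 and 10.2 FPKM in both KCl libraries of WT soma, a 3.59-fold rise (log2 change 1.84, SE 0.22, adjusted p = 0.00037). The neurites held Dusp6 at 5.07 and 2.76 FPKM in Ctrl and 7.67 and 8.99 FPKM in KCl, a 2.25-fold rise (log2 change 1.17, SE 0.22, adjusted p = 0.00855). The groups did not overlap, although Ctrl replicate 1 in neurites lay close to KCl. In neurites the call was lost without Ctrl replicate 2 (log2 change 0.83) or KCl replicate 2 (adjusted p = 0.083). Dusp7 was at 3.51 and 3.45 FPKM in Ctrl and 2.16 and 1.36 FPKM in KCl in WT soma (log2 change -0.99, SE 0.22, adjusted p = 0.0137), lower in both KCl libraries but just short of 2-fold. Without KCl replicate 1, or with the replicate number as a block, it passed that threshold (log2 change -1.32 and -1.01). In WT neurites its log2 change was -0.58 (SE 0.22, adjusted p = 0.146).

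Among the JNK and p38 phosphatases, Dusp10 rose in both compartments. It stood at 0.682 and 0.736 FPKM in Ctrl and 3.88 and 4.41 FPKM in KCl in WT soma, a 5.86-fold rise (log2 change 2.55, SE 0.25, adjusted p = 0.0001). The neurite levels of Dusp10 were 0.790 and 0.391 FPKM in Ctrl and 2.47 and 2.52 FPKM in KCl, a 4.40-fold rise (log2 change 2.14, SE 0.27, adjusted p = 0.00075). Every KCl library lay above every Ctrl library of its compartment. Dusp16 was at 0.617 and 0.691 FPKM in Ctrl and 1.30 and 1.26 FPKM in KCl in WT soma (log2 change 0.97, SE 0.26, adjusted p = 0.0302), just short of 2-fold. The neurites held Dusp16 at 0.748 and 0.359 FPKM in Ctrl and 1.13 and 1.26 FPKM in KCl (log2 change 1.19, SE 0.27, adjusted p = 0.0205), past it. The KCl libraries of Dusp16 were the higher ones in both compartments, and its call in neurites was lost without Ctrl replicate 2 (log2 change 0.80) or either KCl library (adjusted p = 0.059 and 0.135), and the log2 change was 1.79 without Ctrl replicate 1.

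Dusp8, a phosphatase abundant in brain, stood at 26.7 and 24.2 FPKM in Ctrl and 48.5 and 37.1 FPKM in KCl in WT soma (log2 change 0.75, SE 0.17, adjusted p = 0.0137), higher in both KCl libraries but under 2-fold. In WT neurites it was at 58.5 and 77.1 FPKM in Ctrl and 70.8 and 65.1 FPKM in KCl, and the groups overlapped (log2 change 0.08, SE 0.17, adjusted p = 0.812). Of the members with TGACGTCA in the promoter window, Dusp1 was thus called in both compartments and Dusp8 in neither. Dusp14 was at 34.4 and 36.3 FPKM in Ctrl and 45.6 and 45.8 FPKM in KCl in WT soma (log2 change 0.37, SE 0.14, adjusted p = 0.12). In WT neurites it was at 25.6 and 24.9 FPKM in Ctrl and 32.7 and 46.0 FPKM in KCl (log2 change 0.73, SE 0.14, adjusted p = 0.0118), higher in both KCl libraries and under 2-fold.

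**Figure D2:**
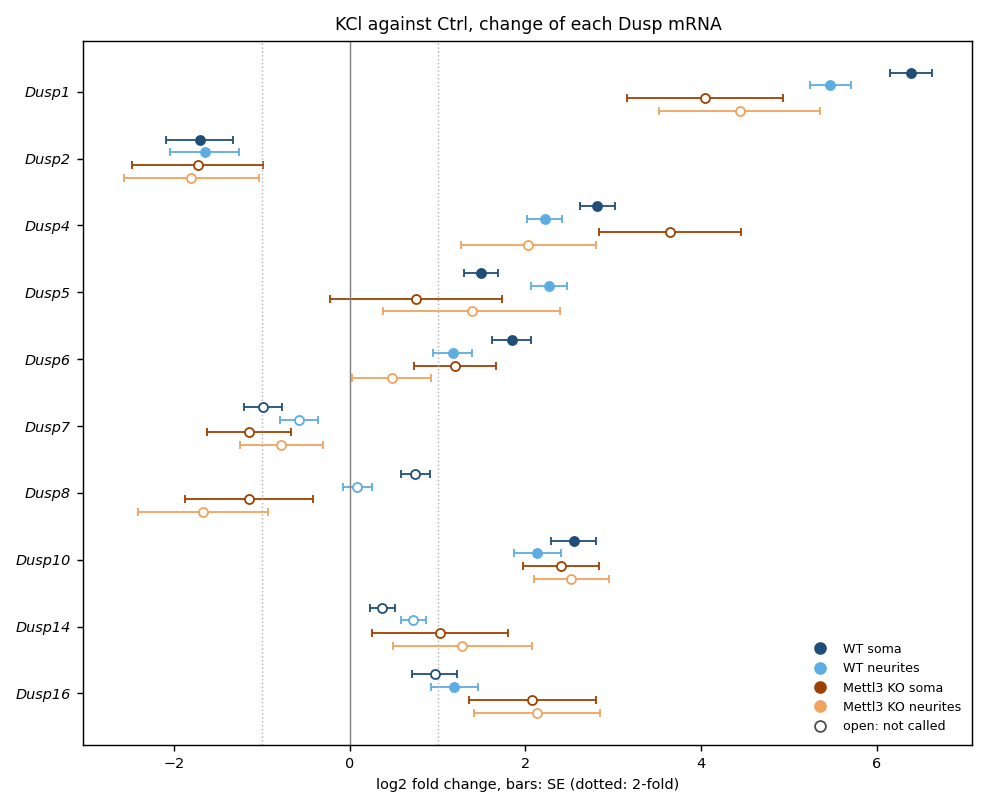
Log2 change of each Dusp mRNA from Ctrl to KCl in WT soma, WT neurites, Mettl3 KO soma and Mettl3 KO neurites; points are edgeR estimates from 2 against 2 libraries, bars are 1 SE, and filled points passed 2-fold and an adjusted p of at most 0.05. In WT, Dusp1 stands at 6.39 and 5.47 and Dusp2 at -1.71 and -1.65, and no point of Mettl3 KO is filled, where the SE is wider.

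In Mettl3 KO neurons, edgeR called no gene for KCl in soma (0% of 23679 genes higher and 0% lower; 855 higher and 659 lower at an unadjusted p of at most 0.05) or in neurites (0% of 22199 either way; 893 and 435 unadjusted), and so none of the 10. At the unadjusted p, 7 of the 10 passed in soma and 5 in neurites, and DESeq2 at an adjusted p called 270 genes in soma and 253 in neurites, among them 3 members in soma (Dusp1, Dusp4 and Dusp10) and 2 in neurites (Dusp1 and Dusp10). Dusp1 was at 5.77 and 8.75 FPKM in Ctrl and 55.2 and 184 FPKM in KCl in soma (log2 change 4.05, SE 0.89, adjusted p = 0.425). In neurites Dusp1 was at 5.23 and 5.58 FPKM in Ctrl and 38.5 and 194 FPKM in KCl (log2 change 4.44, SE 0.92, adjusted p = 0.42). Both KCl libraries lay above both Ctrl libraries, and KCl replicate 1, the library pair with high glial markers, was the lower. Without that pair, which leaves 1 KCl library per compartment assumed to vary like the other groups, Dusp1 passed in soma (log2 change 4.68, adjusted p = 0.0414) and in neurites (5.27, adjusted p = 0.0467).

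Dusp4 in Mettl3 KO was at 4.75 and 2.77 FPKM in Ctrl and 22.1 and 72.0 FPKM in KCl in soma (log2 change 3.64, SE 0.81, adjusted p = 0.431). Dusp10 was at 1.12 and 1.11 FPKM in Ctrl and 6.32 and 5.44 FPKM in KCl in soma (log2 change 2.40, SE 0.43, adjusted p = 0.308), and at 0.932 and 0.760 FPKM in Ctrl and 4.97 and 4.70 FPKM in KCl in neurites (log2 change 2.52, SE 0.42, adjusted p = 0.381). Dusp10 thus held close values in both KCl replicates, and its groups did not overlap. Close KCl values were also found for Dusp7 in soma (1.75 and 1.72 FPKM) and Dusp6 in neurites (13.5 and 12.8 FPKM). Dusp16 was at 0.806 and 0.650 FPKM in Ctrl and 4.47 and 1.66 FPKM in KCl in soma (log2 change 2.08, SE 0.72, adjusted p = 0.751), and at 0.934 and 0.782 FPKM in Ctrl and 5.96 and 1.56 FPKM in KCl in neurites (log2 change 2.13, SE 0.72, adjusted p = 0.737). Its highest levels were in both compartments of KCl replicate 1, where the oligodendrocyte-lineage markers stood at 3511 and 6963 CPM. The astrocyte, microglia, and fibroblast and vessel markers were also highest in this library pair. With the pair left out, the log2 change of Dusp16 was 1.19 in soma and 0.97 in neurites. The part of these cells in the Dusp16 levels was not tested.

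Dusp8 in Mettl3 KO was at 11.2 and 37.4 FPKM in Ctrl and 8.81 and 13.1 FPKM in KCl in soma, where the groups overlapped (log2 change -1.15, SE 0.73, adjusted p = 0.761). In neurites it was at 71.7 and 26.1 FPKM in Ctrl and 8.59 and 21.4 FPKM in KCl, lower in both KCl libraries (log2 change -1.67, SE 0.74, adjusted p = 0.737). The other members had log2 changes of -1.73 (Dusp2), 0.76 (Dusp5), 1.20 (Dusp6), -1.15 (Dusp7) and 1.03 (Dusp14) in soma. In neurites they were -1.80 (Dusp2), 2.03 (Dusp4), 1.39 (Dusp5), 0.48 (Dusp6), -0.78 (Dusp7) and 1.28 (Dusp14). The median over the 10 members was 1.11 in soma and 1.33 in neurites.

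Whether the response differed between genotypes was tested as an interaction in the 16 libraries, which called 0% of 24058 genes in soma (221 higher and 273 lower unadjusted, 2 by DESeq2) and 0% of 22311 in neurites (630 and 287 unadjusted, 0 by DESeq2), so no member. Without Mettl3 KO soma Ctrl replicate 1, edgeR called 1445 genes in soma, 1317 higher and 128 lower. Dusp1 and Dusp8 in soma passed at an unadjusted p, and Dusp1 in soma was called with no filter on low counts (adjusted p = 0.00429). The KCl change of Dusp1 differed between Mettl3 KO and WT soma by -2.36 on the log2 scale (SE 0.90, adjusted p = 0.994), and in neurites the difference was -0.93 (SE 0.90, adjusted p = 0.874). With libraries left out it ran from -3.46 (without KCl-treated Mettl3 KO soma replicate 2) to -1.72 (without both libraries of KCl-treated Mettl3 KO replicate 1) in soma, and from -2.52 to -0.21 in neurites (without KCl-treated Mettl3 KO replicate 2 and 1). For Dusp8 the difference was -1.89 in soma (SE 0.80, adjusted p = 0.994) and -1.64 in neurites (SE 0.80, adjusted p = 0.866). It ran from -2.49 to -0.83 in soma (without Mettl3 KO Ctrl replicate 1 and 2) and from -2.43 (without KCl-treated Mettl3 KO replicate 2) to -0.80 (without Mettl3 KO Ctrl replicate 1) in neurites.

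In Ctrl cultures, Mettl3 KO and WT were compared directly, and 0.185% of 23750 genes differed in soma and 0.188% of 21814 in neurites, none of them a Dusp member by edgeR or DESeq2. At an unadjusted p, 1 of the 10 passed in each, Dusp6. Over all genes tested, 1020 passed higher and 1016 lower in soma, and 565 and 964 in neurites, so 1 of 10 was near the background. Dusp6 was at 3.07 FPKM in both WT soma libraries and 7.46 and 5.67 FPKM in Mettl3 KO (log2 difference 1.13, SE 0.38, adjusted p = 0.378). In neurites Dusp6 was at 5.07 and 2.76 FPKM in WT and 13.6 and 5.54 FPKM in Mettl3 KO (log2 difference 1.26, SE 0.38, adjusted p = 0.334). Both Mettl3 KO libraries were above both WT libraries in each compartment. The same held for Dusp1 in each compartment, for Dusp10 in soma, and for Dusp14 and Dusp16 in neurites. Dusp4 was lower in both Mettl3 KO soma libraries. The 9 astrocyte markers moved in the direction of Dusp6, from 1195 to 1211 CPM in WT soma to 2054 to 2463 CPM in Mettl3 KO soma. In neurites they went from 2023 to 3253 CPM to 2925 to 7130 CPM, and their part was not tested. The Ctrl level of Dusp1 was also higher in both Mettl3 KO soma libraries (log2 difference 1.29, SE 0.64, adjusted p = 0.589), and this difference was called without KCl-treated Mettl3 KO replicate 1 in the fit (1.26, adjusted p = 0.0468).

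The distribution between neurites and soma was compared next, where 1.5-fold and an adjusted p of at most 0.05 were required. In WT Ctrl the 9 astrocyte markers summed to 2023 to 3253 CPM in neurites and 1195 to 1211 CPM in soma. The 10 neuron markers summed to 11404 to 12981 CPM in neurites and 5422 to 5806 CPM in soma. The part of glial RNA in the differences below was not tested. In WT Ctrl, 13.6% of 23200 genes were called, and of the 10 members 1, Dusp8. Dusp8 stood at 26.7 and 24.2 FPKM in soma and 58.5 and 77.1 FPKM in neurites, 2.55-fold higher (log2 difference 1.35, SE 0.17, adjusted p = 0.00073). Both neurite libraries were above both soma libraries, and the log2 difference stayed between 1.10 and 1.57 whichever Ctrl library was left out. In the fit of 16 libraries it was 1.45 with an adjusted p of 0.599. Exons of Dusp8 share bases with Gm32786, a noncoding RNA on the opposite strand, and the counting did not use strand. Dusp14 was lower in both neurite libraries, at 25.6 and 24.9 FPKM against 34.4 and 36.3 FPKM, at under 1.5-fold (log2 difference -0.56, adjusted p = 0.0233). Dusp1 did not differ beyond its spread (log2 difference 0.34, adjusted p = 0.265).

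After KCl, 9.6% of 23028 genes were called in WT, and again Dusp8 was the 1 member called, at 48.5 and 37.1 FPKM in soma and 70.8 and 65.1 FPKM in neurites, 1.61-fold higher (log2 difference 0.68, SE 0.17, adjusted p = 0.0236). The libraries did not overlap, but the call was lost without neurite replicate 1 (adjusted p = 0.159), neurite replicate 2 (0.0716) or soma replicate 2 (0.0718). Dusp1, Dusp4 and Dusp10 were lower in neurites, with log2 differences of -0.58 for Dusp1 (adjusted p = 0.0692), -0.56 for Dusp4 (0.0694) and -0.72 for Dusp10 (0.0725), none past the threshold in edgeR and all 3 past it in DESeq2 (adjusted p = 0.00996, 0.0152 and 0.0141). Dusp5 had a log2 difference of 0.38 (SE 0.19, adjusted p = 0.216). In Mettl3 KO Ctrl, edgeR called 0% of 22557 genes (883 higher and 356 lower unadjusted, 17 by DESeq2), and 1119 genes without soma Ctrl replicate 1 (1112 higher and 7 lower). There Dusp8 was at 11.2 and 37.4 FPKM in soma and 71.7 and 26.1 FPKM in neurites, so its groups overlapped (log2 difference 0.93, SE 0.72, adjusted p = 0.868).

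**Figure D3:**
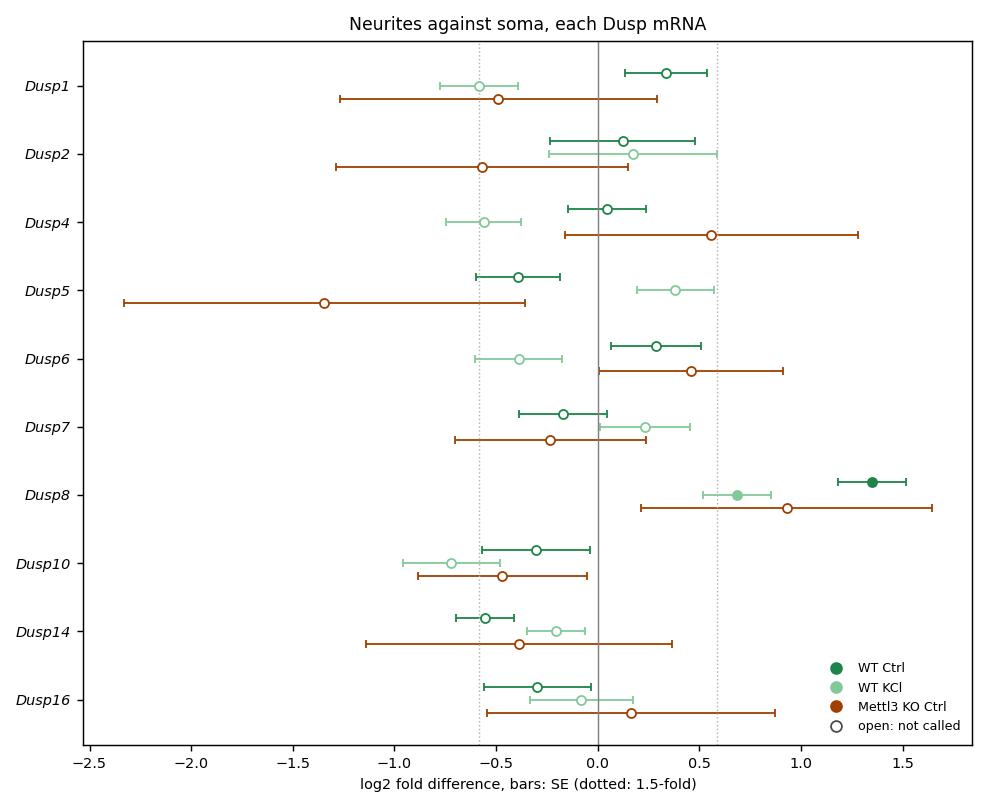
Log2 difference of each Dusp mRNA between neurites and soma in WT Ctrl, WT KCl and Mettl3 KO Ctrl neurons; points are edgeR estimates from 2 against 2 libraries, bars are 1 SE, and filled points passed 1.5-fold and an adjusted p of at most 0.05. Dusp8 stands at 1.35 in WT Ctrl and 0.68 in WT KCl, the 2 filled points.

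The change of the neurite-to-soma ratio with KCl in WT was fitted with a term for each insert. Soma and neurite libraries with the same treatment and replicate number were taken as 1 insert, which the labels do not state. Over genes, the differences between replicates correlated between WT soma and neurites at -0.123 in Ctrl and 0.0406 in KCl. In this fit edgeR called 0% of 23200 genes (465 higher and 314 lower unadjusted, 13 by DESeq2). It called 153 genes without soma KCl replicate 2 (149 higher and 4 lower) and 120 without neurite KCl replicate 2 (116 and 4). At an unadjusted p of at most 0.05, 3 of the 10 members passed 1.5-fold. The log2 change of the ratio was -0.87 for Dusp1, -0.64 for Dusp8 and 0.78 for Dusp5, each with an adjusted p of 0.999 in the main edgeR fit. With no filter on low counts edgeR called 63 of 47796 genes, among them Dusp1 (adjusted p = 0.0325) and no other member. Dusp5 stood at 0.854 and 1.12 FPKM in neurites and 1.18 and 1.28 FPKM in soma in Ctrl. After KCl it stood at 4.79 and 4.14 FPKM in neurites and 3.45 and 3.47 FPKM in soma. Neither difference between compartments was called by edgeR (adjusted p = 0.204 in Ctrl and 0.216 after KCl). Dusp4 had a log2 change of the ratio of -0.58, just under 1.5-fold.

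The other genes of the MAP kinase cascades served as a comparison, as a list of 84 genes in 7 classes. Of these, 83 were tested in WT soma, with 5 called higher after KCl, against 3.74% of all genes tested, and 0 lower, against 2.96%. In WT neurites 82 were tested, with 4 called higher (3 by DESeq2), against 3.33%, and 0 lower, against 1.7%. The median log2 change was -0.10 in soma and -0.04 in neurites. No member of the MAP kinases themselves (14 genes), the MAP2 kinases (7), the scaffolds (5) or the other phosphatases (18, among them Dusp3, Dusp9 and Ptpn5) was called in either compartment by edgeR, at an unadjusted p or by DESeq2. Those called in WT soma were Spry2, a feedback inhibitor of receptor tyrosine kinase signalling, at 10.1 and 7.42 CPM in Ctrl and 31.5 and 40.1 CPM in KCl (log2 change 2.03, SE 0.26, adjusted p = 0.00053), and its relative Spry4 (log2 change 1.08, adjusted p = 0.00066). Mknk2, a kinase of eIF4E under ERK and p38, went from 25.0 and 22.9 CPM to 72.7 and 88.3 CPM (log2 change 1.75, SE 0.13, adjusted p = 1.4e-05). The upstream kinases Map3k2 (log2 change 1.16, adjusted p = 0.0015) and Map3k1 (1.07, adjusted p = 0.0071) completed the 5. In WT neurites the 4 were Spry2 (1.55), Map3k2 (1.49), Mknk2 (1.28) and Mapkapk5 (1.06, adjusted p = 0.0472). In Mettl3 KO none of the 83 tested was called by edgeR in either compartment. At an unadjusted p, 5 passed in soma, where 855 of 23679 genes passed higher and 659 lower. In neurites 6 passed, where 893 of 22199 genes passed higher and 435 lower. DESeq2 called 2 of the 83 in soma and 0 in neurites.

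**Figure D4:**
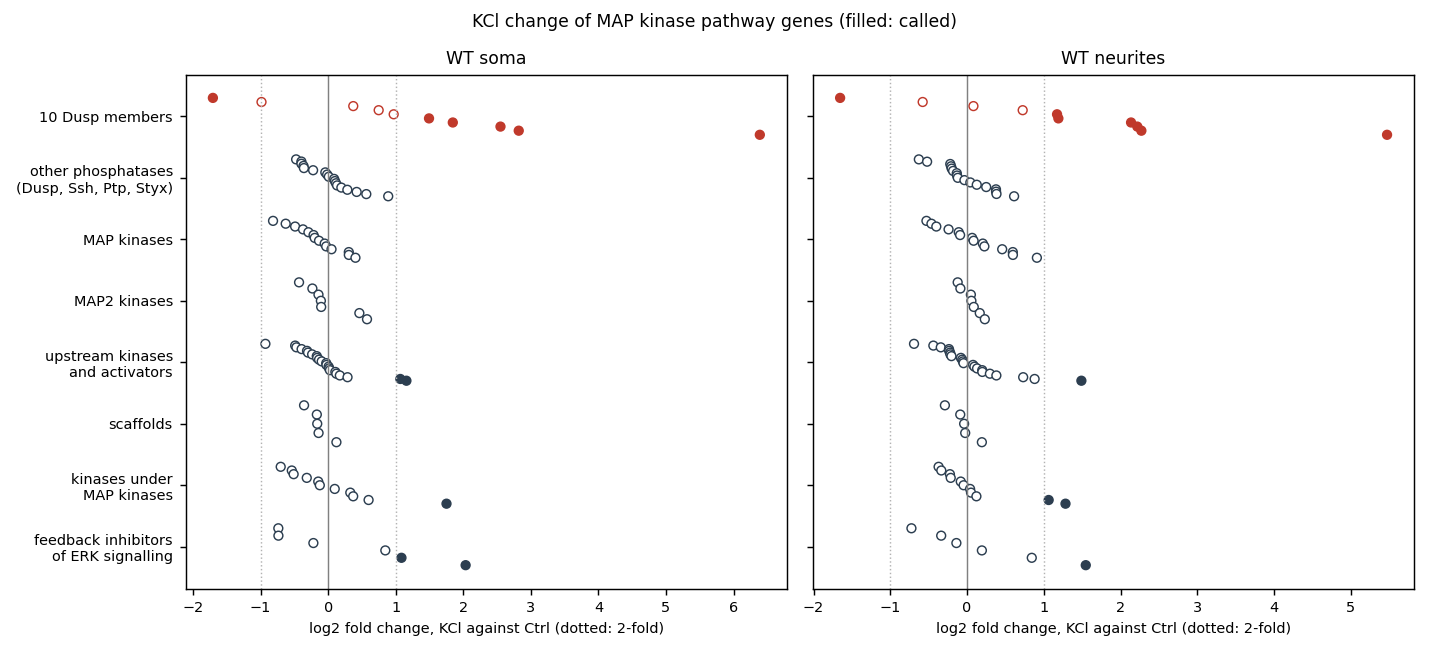
Log2 change from Ctrl to KCl in WT soma and WT neurites for the 10 Dusp members and the 7 classes of other MAP kinase genes; each point is 1 gene, filled where it passed 2-fold and an adjusted p of at most 0.05, dotted lines mark 2-fold, and the vertical offset within a class only separates the points. The Dusp members have medians of 1.23 and 1.18, and the class medians of the others in soma lie between -0.17 and 0.31.

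Which genes ran most like each phosphatase was measured as Pearson's r of log2(CPM + 1) over the 16 libraries, over genes whose mean count reached 100. These libraries share litters, treatments and the pair that stood apart, so the values are descriptions. Dusp1 ran most like Btg2 (r = 0.993), Fosb (0.989) and Arc (0.987), 3 immediate early genes. Dusp10 ran most like Sertad2 (0.981), Sertad1 (0.976) and Tor1aip1 (0.972), and Dusp4 most like Sap18 (0.976), Spty2d1 (0.969) and Per1 (0.968). Dusp16 was nearest to Gnai3 (0.979), Eif2s2 (0.976) and Cdk5rap2 (0.974), and Dusp5 to Zfand5 (0.953), Tspyl1 (0.927) and Gm13889 (0.921). Dusp6 was nearest to Sox9 (0.939), which is also one of the astrocyte markers, Plekho1 (0.937) and Mapre1 (0.897). Dusp2 ran most like Ubox5 (0.960), Ccdc71 (0.944) and Palm3 (0.941), Dusp7 like Pbx2 (0.963), Zscan2 (0.933) and Wtip (0.931), Dusp8 like Btbd9 (0.946), Foxp1 (0.944) and Gsk3b (0.944), and Dusp14 like Ankrd9 (0.914), Inpp5k (0.914) and Sstr1 (0.914). Between members, r was 0.921 for Dusp1 and Dusp4, 0.904 for Dusp2 and Dusp7, and -0.805 for Dusp1 and Dusp7.

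In the DART-seq table, 4 of the 10 members were listed among 5643 RNAs, namely Dusp1, Dusp4, Dusp6 and Dusp8, with 21 sites. Of all 15170 genes whose mean RNA-seq count reached 100, 36.3% were listed, and 9 of the members had such a count, so the listed share of the members was close to the background. The sites had been selected by the authors for higher editing in WT than in Mettl3 KO, which fixes that direction. The values were pooled by the authors and have no error, the depth at a site is unknown, and the soma and neurite averages pool Ctrl and KCl libraries.

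Dusp4 carried 11 sites, against a median of 2 per listed RNA, and its editing score, the sum over sites of the average C-to-U fraction, was 0.280 in WT, above 87.4% of listed RNAs. Its highest site was edited at 14.2% and lay in the 3′ UTR, 4 sites in all lay there and 2 in the coding sequence, and 5 lay 211 to 1483 bases past the annotated end of the gene. The single site of Dusp6, in the 5′ UTR, was edited at 14.3%, and its score was 0.148, so site values and scores are not the same average. Dusp1 had 4 sites and a score of 0.129, with the highest, at 8.31%, in the 5′ UTR or coding sequence depending on the transcript. Dusp8 had 5 sites of 1.44% to 3.17%, 3 in the 3′ UTR and 2 in the coding sequence, and a score of 0.113, near the median of 0.103 over all listed RNAs. The median editing over all 18231 sites was 3.54%. All 21 edited cytidines followed A or G and then A, and 18 of them lay in the full consensus motif DRACH.

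Between compartments, the score of Dusp6 was 0.0854 in soma and 0.196 in neurites (ratio 2.30), that of Dusp8 was 0.0731 and 0.145 (ratio 1.99) and that of Dusp1 0.113 and 0.167 (ratio 1.48). The score of Dusp4 was lower in neurites, at 0.299 in soma and 0.255 in neurites (ratio 0.853). Over all listed RNAs the median ratio was 1.30 and 68.8% were higher in neurites, so 3 of the 4 members were on the side of most RNAs and Dusp4 was not. With no replicates in the table, none of these differences could be tested. Of the listed members, Dusp8 alone was called for neurite enrichment by RNA-seq in WT Ctrl, and Dusp1, Dusp4 and Dusp6 were called for KCl in both WT compartments. The unlisted Dusp5 and Dusp10 (higher) and Dusp2 (lower) were called for KCl in both as well.

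**Figure D5:**
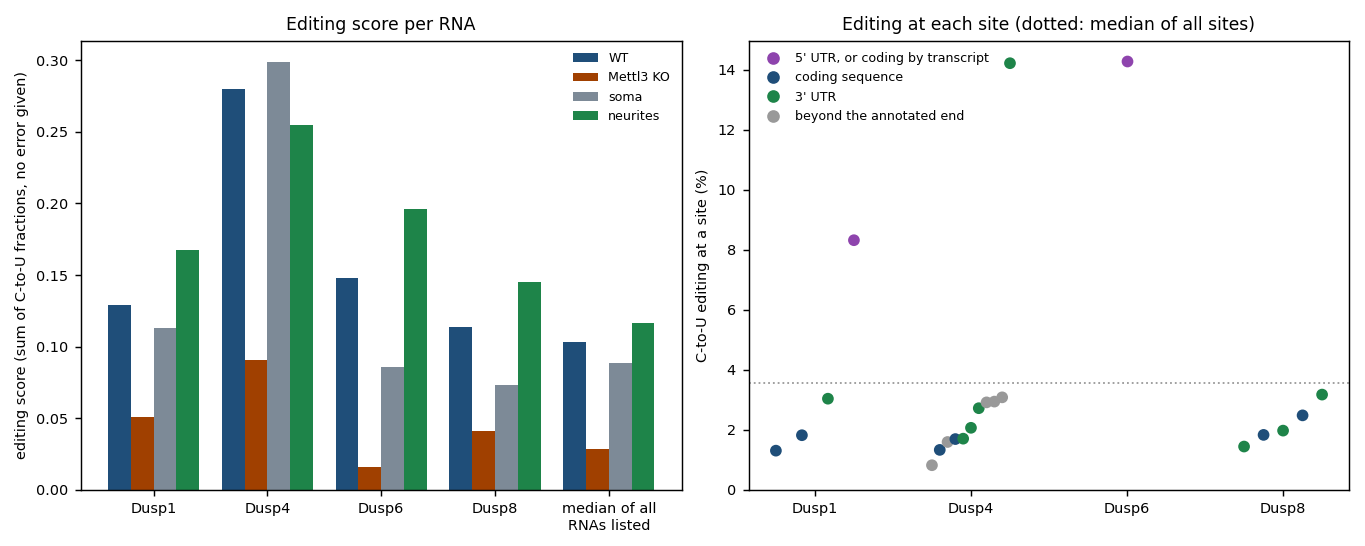
DART-seq values of the 4 listed members. The bars give the authors' editing score (sum of C-to-U fractions, no error available) in WT, Mettl3 KO, soma and neurites beside the median of all 5643 listed RNAs, and the points give the editing of each of the 21 sites in percent, coloured by region of the transcript; Dusp4 has the highest WT score at 0.280, and the highest sites of Dusp4 and Dusp6 are edited at 14.2% and 14.3%.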

How the data were processed

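The deposited RNA-seq table holds whole-number counts of 55573 genes in 16 libraries. According to the submitters' processing notes, the authors used STAR 2.7.7a, the mm10 build, featureCounts 2.0.1 and DESeq2, and the header of the table gives the GRCm38 annotation of Ensembl release 97. Counting was unstranded, and reads that overlap 2 genes were not counted. The 37 mitochondrially encoded genes were at 0 in every library and were left out. The DART-seq score that the authors give an RNA sums average C-to-U fractions over its sites. The deposited site value is a pooled C-to-U fraction, and the site values of an RNA did not add up to its WT score. The authors' DESeq2 tables hold their own fold changes and p-values, of which only the gene symbols were used here.

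Genes whose mean count reached 10 in the compared libraries were tested with edgeR 4.0.16 in R 4.3.3 (TMM, two-sided quasi-likelihood test, with Benjamini-Hochberg adjustment over all genes tested). Each genotype was fitted alone (8 libraries) for contrasts within it, because the spread differed between genotypes, and all 16 libraries together for contrasts between genotypes. A call required 2-fold for KCl and 1.5-fold otherwise, with an adjusted p of no more than 0.05. SE was obtained from the F statistic. Alternatives were DESeq2 1.42.0, RLE scaling, other count filters, other sets of libraries, limma 3.58.1 (voom with a weight per genotype), the replicate block, the unadjusted p, and each library left out. The fit without KCl-treated Mettl3 KO replicate 1 was listed because earlier results showed it apart. The edgeR fits were first tested on simulated data.

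Named genes were the 10 members, the MAP kinase genes called for KCl in WT (up to 5 each way) and the 3 genes most like each member. The members, gene lists and motifs were chosen with earlier results of these data known. Replicates came from distinct litters. The paper states that Ctrl and KCl neurons shared a litter, but the labels do not give the litter. The main tests of KCl and of neurites against soma had no term for litter or insert. Soma and neurites with the same number and treatment were paired as 1 insert only in the fit of the neurite-to-soma ratio, after the methods of the study. The libraries had no molecular identifiers, so PCR copies are counted and overstate the precision of low genes. Site regions were read from GENCODE M21 on GRCm38. DART-seq reads and the MeRIP-seq, RIP-seq and imaging data of the study were not analysed here.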

Additional observations from a re-analysis of the deposited data

How the results depend on the processing

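The number of members called for KCl in WT soma, 6, was 4 with all 16 libraries in 1 fit and 5 to 7 in the other alternatives. In WT neurites it was 7, and it fell to 2 when all 16 libraries shared 1 fit and ranged from 4 to 7 with a library left out. In Mettl3 KO soma it was 0 and became 3 with DESeq2, 4 with no filter on low counts, 3 with all 16 libraries and 1 without KCl-treated replicate 1. In Mettl3 KO neurites it was 0 and became 2, 2, 2 and 1 under the same 4 settings. For neurites against soma in WT Ctrl the 1 call became 2 with no filter and 0 with all 16 libraries, and ranged from 1 to 3 with a library left out. In WT KCl the 1 call became 4 with DESeq2, 3 with no filter, 0 with all 16 libraries and 2 with the 4 libraries alone, and ranged from 0 to 2. The KCl change of the neurite-to-soma ratio had 0 calls, 1 with no filter and 3 at an unadjusted p. Mettl3 KO against WT in soma Ctrl had 0, and 1 without KCl-treated Mettl3 KO replicate 1. The difference of the KCl response in soma had 0, 1 with no filter and 2 at an unadjusted p. The causes were not tested.

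Of 1482 recomputed member values 72 changed sign, in 44 of 120 results, none with an adjusted p of at most 0.05 and none in a called member. With a library left out, the log2 change ranged from -0.13 to 0.33 for Dusp8 with KCl in WT neurites, from -0.56 to 2.18 for Dusp5 in Mettl3 KO soma, and in Mettl3 KO neurites from -0.29 to 2.20 for Dusp5 (2.12 without KCl replicate 1), from -0.0041 to 1.14 for Dusp6 and from -0.20 to 2.05 for Dusp14 (1.96 without KCl replicate 1). For Dusp1 it ranged from -0.098 to 0.65 between neurites and soma in WT Ctrl.

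With the replicate number as a block, 7 members were called for KCl in WT soma and Dusp1 in neurites of Mettl3 KO against WT turned from 0.45 to -0.12. The block across groups was an alternative alone, because the replicate differences of groups with the same numbers correlated at -0.149 to 0.0524 in WT, and at 0.0447 to 0.885 in Mettl3 KO.

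Over all genes, the fit to 16 libraries called 320 higher and 21 lower for KCl in WT soma (899 and 712 with WT alone), 240 and 23 in WT neurites (734 and 375), 231 and 46 in Mettl3 KO soma, 208 and 15 in Mettl3 KO neurites (0 each with Mettl3 KO alone), and 0 for neurites against soma in WT (3145 in Ctrl and 2211 in KCl). With no filter, 708 and 91 genes were called in Mettl3 KO soma and 419 and 22 in Mettl3 KO neurites. Mettl3 KO against WT in Ctrl called 44 genes in soma and 41 in neurites, DESeq2 called 417 and 313, voom 18 and 23, and the fit without KCl-treated Mettl3 KO replicate 1 called 419 and 270 (19 and 12 for KCl in Mettl3 KO soma and neurites). No filter gave 1776 for KCl in WT neurites, 101 for neurites against soma in Mettl3 KO, 63 for the change of the ratio, 72 for Mettl3 KO in soma Ctrl and 236 for the difference of the response in soma, and a mean count of 100 gave 1043 and 643 for KCl in WT soma and neurites. With a library left out the totals ran from 812 to 1522 and from 576 to 1186 for KCl in WT soma and neurites, from 1068 to 3694 and from 752 to 2395 for neurites against soma in WT Ctrl and KCl, and from 4 to 2640 and from 4 to 14 for Mettl3 KO in soma and neurites.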
